A study of Mus musculus with 15 samples.

Results

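The comparison described here is between mouse embryonic fibroblasts (MEFs) that received MyoD-mRNA together with forskolin, RepSox, CHIR99210 and CP690550 (MyoD + F/R/C + CP) and MEFs that received MyoD-mRNA alone (+MyoD). Its libraries were chosen by their titles, 3 in each group, and they are 6 of the 15 bulk RNA-seq libraries of the series. All of the MEFs carried the genotype Tg:Pax7-nGFP/C57BL6;DBA2, and each MEF line was derived from a single embryo. The same 3 lines stood behind every condition, so that the replicates are separate embryos and line 1 of one group pairs with line 1 of the other. Both groups were grown in the medium for induced myogenic progenitor cells (iMPC medium) with B18R, a viral interferon-binding protein, were transfected 4 times with synthetic MyoD-mRNA and were collected on day 10. The treated group differed from +MyoD by all of the 4 compounds at once, and their separate contributions cannot be told apart in this contrast. Forskolin activates adenylyl cyclase and raises cAMP, RepSox blocks the TGF-β type I receptor, CHIR99210 inhibits GSK3 and so activates Wnt signaling, and CP690550 is an inhibitor of Janus kinases (JAKs). The remaining groups were untransfected MEFs in iMPC medium, MyoD + F/R/C without CP690550, and MyoD + F/R/C with the JNK inhibitor SP600125 (MyoD + F/R/C + SP). They are used here as reference levels, and the contrast of MyoD + F/R/C + CP with MyoD + F/R/C is the one that isolates CP690550.

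MyoD is the basic helix-loop-helix factor that turns fibroblasts toward skeletal muscle by binding E-boxes at muscle genes. In growing muscle, Pax7 marks satellite cells, the resident stem cells, while Myf5, Myod1, Myog and Myf6 act in sequence on the way to fused and contractile fibers. TGF-β signaling restrains myogenic differentiation and drives matrix production in fibroblasts, and cytokine and interferon receptors pass their signal through JAKs to STAT transcription factors.

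The 6 libraries held between 29393872 and 40537116 estimated counts. Of the 35675 genes with a matched transcript, 19331 had enough counts to be tested. Levels are given as CPM (a gene's counts per 1e6 counts of its library) after TMM scaling, in the order of line 1, line 2 and line 3. The error of a log2 fold change is its size divided by the square root of the F statistic of edgeR's quasi-likelihood fit (n = 3 per group). It rests on a spread estimated over all 15 libraries. A gene was called higher or lower when its Benjamini-Hochberg adjusted p in that fit was at most 0.05 and its log2 fold change was over 0.5 in size. The spread between lines was not equal, since the biological coefficient of variation was 0.487 in +MyoD and 0.293 in MyoD + F/R/C + CP. Line 1 expressed Y-linked genes and lines 2 and 3 expressed Xist, in every condition. These are whole cultures, so fewer cells of a type and less RNA per cell cannot be told apart. Mitochondrial transcripts took 1.43% to 1.80% of the counts in +MyoD and 2.52% to 3.64% in MyoD + F/R/C + CP. Kallisto divides reads between near-identical transcripts, which leaves the levels of near paralogs uncertain.

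The targeted gene Myod1 (ENSMUSG00000009471.4, chr7:46376474-46379099, plus strand, GRCm38) checked the transfection. Its levels were 0.556, 0.113 and 0.41 CPM in untransfected MEFs, 3481, 1615 and 1722 CPM in +MyoD and 3845, 1074 and 932 CPM in MyoD + F/R/C + CP. Line 1 held the highest level in both transfected groups, the ranges of these groups overlapped, and Myod1 was not called (log2 fold change −0.42 ± 0.26, adjusted p = 0.252). Synthetic and endogenous Myod1 transcripts were counted together. The study's methods place the 3′ end of alpha 1 globin behind the coding sequence of the synthetic RNA. Hba-a2, an alpha-globin gene, had 0, 0.0283 and 0.0293 CPM in MEFs, 188, 54 and 79.2 CPM in +MyoD and 154, 43.3 and 54.9 CPM in MyoD + F/R/C + CP, also with line 1 highest, and was not called between the latter groups (log2 fold change −0.37 ± 0.43, adjusted p = 0.575). Hba-a2 was added after its values were seen, it is nearly identical to Hba-a1, and the source of its reads was not tested.

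Relative to MyoD alone, the cocktail moved a large part of the transcriptome. Of 19331 genes, 2588 were called higher (13.4%) and 1996 were called lower (10.3%) in MyoD + F/R/C + CP. Higher calls reached further, since 648 genes rose by more than 3 on the log2 scale and 107 fell by more than that. The sign was the same in all 3 lines for 4516 of the 4584 called genes, and the share over all genes tested was not computed. The 3 libraries of each group did not overlap for 4313 of the called genes, compared with 7373 of all genes tested (38.1%). The calls were made from these same libraries, so neither count is separate support for them. The median log2 fold change of all genes was 0.03 with TMM scaling. Scaling by library totals alone moved it to 0.22, with 3494 genes called higher and 1294 lower, so that 73.0% instead of 56.5% of the calls were higher. Protein-coding genes gave 2441 of the higher and 1915 of the lower calls, and long intergenic noncoding RNAs gave 70 and 30 of 938 tested.

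The gene lists differed in direction, as the plot of list members shows. Counts of called list members in this contrast stand beside 13.4% of all genes called higher and 10.3% called lower. Genes of the contractile apparatus, of DNA replication and of mitosis lay almost wholly on the higher side. TGF-β targets lay mostly on the lower side, and JAK/STAT pathway genes were more often called lower than higher. Melanocyte and neuronal markers had the highest list medians, 3.35 and 2.49 on the log2 scale, though at low CPM. The melanocyte list includes Tyrp1, which had enough counts to be tested only through the libraries with CP690550.

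**Figure D1:**
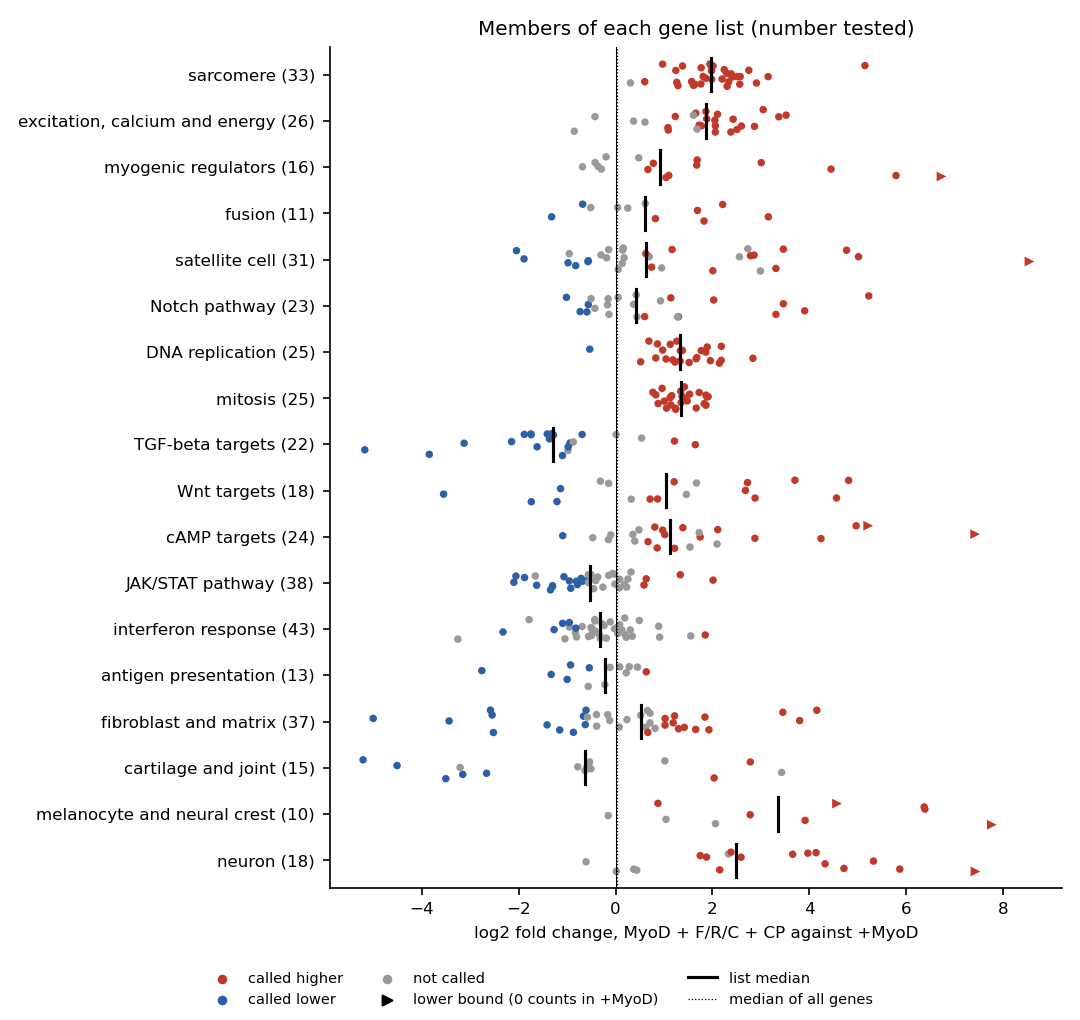
Each point is a gene of the list named on the y axis, placed on the x axis by its log2 fold change in MyoD + F/R/C + CP against +MyoD, with red for genes called higher, blue for genes called lower and gray for genes not called. Triangles are lower bounds for genes with 0 counts in +MyoD, black bars are list medians and the dotted line is the median of all genes (0.03). The sarcomere list has a median of 1.98 and the TGF-beta targets a median of −1.30.

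Genes of the sarcomere moved one way. Of 33 genes tested, 32 rose and 0 fell, with a median log2 fold change of 1.98 against 0.03 over all genes, and the CPM summed over the list was 3465 to 4534 in +MyoD and 10910 to 15760 in MyoD + F/R/C + CP. The 1 member not called was Myh7, the slow myosin heavy chain (log2 fold change 0.31 ± 0.31, adjusted p = 0.514). Myh1, a fast adult myosin heavy chain, had 17.7, 7.1 and 64.5 CPM in +MyoD and 169.5, 213 and 227 CPM in MyoD + F/R/C + CP. All treated libraries lay above all +MyoD libraries, and Myh1 rose (log2 fold change 3.15 ± 0.46, adjusted p = 0.000223). Actn2, which anchors thin filaments at the Z-disc, had 103, 59.7 and 87.6 CPM in +MyoD and 445, 619 and 620.1 CPM with the cocktail, again without overlap (log2 fold change 2.75 ± 0.22, adjusted p = 2.89e-06). Among the genes of excitation, calcium handling and energy supply, 20 of 26 rose and 0 fell (median 1.87). Atp2a1, the calcium pump of the sarcoplasmic reticulum, had 80.4, 94.8 and 162 CPM in +MyoD and 381, 488 and 506 CPM in the treated group, with the groups apart in every line (log2 fold change 2.06 ± 0.17, adjusted p = 2.74e-06). Ckm, the muscle creatine kinase, had 2.91, 4.83 and 5.16 CPM without compounds and 15.9, 23.7 and 27 CPM with them, and it rose as well (log2 fold change 2.38 ± 0.23, adjusted p = 9.48e-06). Of 11 fusion genes, 5 rose (45.5%, beside 13.4% of all genes) and 2 fell (18.2%, beside 10.3%). Cdh15, the M-cadherin of myoblasts, had 36.8, 10.7 and 29.8 CPM in +MyoD and 197, 238 and 222 CPM in MyoD + F/R/C + CP and did not overlap (log2 fold change 3.16 ± 0.36, adjusted p = 3.41e-05). Myof and Kirrel, which also act in membrane fusion and adhesion, fell by 1.32 and 0.68 on the log2 scale, and the call of Kirrel was lost with scaling by library totals.

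The E-box variant CAGCTG, which reads the same on both strands, was searched in promoter windows from RefSeq (GRCm38.p6), each from 250 bases before to 50 bases after a gene's start. It was present in 10 of the 24 sarcomere genes with a window (41.7%) and in 13 of 18 genes of excitation and energy (72.2%), compared with 18.7% of 13366 tested genes with a window and 16.3% of all 32851 windows. Among the genes called higher it was present in 21.9%, and among those called lower in 20.8%. Stretches of 30 bases are shown for 3 genes that rose here, with the match in capitals.
Atp2a1, chr7:126463111-126463140, minus strand: cctcataaggacCAGCTGggggctgggggg
Des, chr1:75360244-75360273, plus strand: agagggatcctgCAGCTGtcaggggagggg
Tmem182, chr1:40805548-40805577, plus strand: gcctgccattctCAGCTGctggcttggagc
A match of this kind describes the letters of the window and does not show binding. Des encodes the intermediate filament desmin and Tmem182 a muscle membrane protein, and both rose (log2 fold change 0.97 ± 0.24 and 1.69 ± 0.26).

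Of 16 myogenic regulators tested, 10 rose and 0 fell, with a median of 0.91. Among the 4 myogenic regulatory factors, Myf5, Myf6 and Myog rose, whereas Myod1 was not called. Myog, the differentiation factor, had 36.6, 18.6 and 28 CPM in +MyoD and 228, 235 and 189 CPM in MyoD + F/R/C + CP, with no overlap between groups (log2 fold change 3.01 ± 0.39, adjusted p = 7.77e-05). Myf6, a late regulatory factor, had 0.533, 0.0873 and 1.54 CPM in +MyoD and 12.6, 13.1 and 17.9 CPM with the cocktail and was higher in every line (log2 fold change 4.45 ± 0.56, adjusted p = 0.000143). Myf5, the early regulatory factor, had 0 counts in all +MyoD libraries and 2.74, 5.61 and 0.76 CPM in the treated ones. Counted against a floor of 3 counts over the +MyoD libraries, it was at least 105-fold higher (adjusted p = 0.00035). Msc, a repressor of myogenic differentiation, had 0.658, 0 and 0 CPM in +MyoD and 13.9, 14.2 and 2.91 CPM with the cocktail, where line 3 was the lowest but still above all controls (log2 fold change 5.79 ± 1.07, adjusted p = 0.00124).

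Satellite cell genes moved in both directions, with 35.5% called higher and 19.4% lower, beside 13.4% and 10.3% of all genes. Of 31 tested, 11 rose and 6 fell (median 0.62, or 0.33 without line 3 of +MyoD), and their summed CPM overlapped, with 2854 to 3580 in +MyoD and 2820 to 3046 in MyoD + F/R/C + CP. Pax7 (ENSMUSG00000028736.13, chr4:139737062-139833528, minus strand) had 0 counts in the 3 +MyoD libraries and 12.7, 14.1 and 5.45 CPM in MyoD + F/R/C + CP. It was therefore at least 371-fold higher (adjusted p = 2.03e-05), and line 3 was the lowest of the treated lines. Pax7 was measured at 1.22, 0.669 and 0.284 CPM in MyoD + F/R/C and at 5.97, 20.4 and 4.99 CPM in MyoD + F/R/C + SP. All libraries with CP690550 lay above all F/R/C libraries and within the range of those with SP600125. Pax7 rose against MyoD + F/R/C (log2 fold change 3.93 ± 0.59, adjusted p = 0.0351), whereas against MyoD + F/R/C + SP the difference was 0.08 ± 0.52 on the log2 scale and was not called. Fgfr4, a fibroblast growth factor receptor of muscle progenitors, had 1.03, 1.86 and 0.623 CPM in +MyoD and 38, 34.2 and 18.7 CPM with the cocktail, without overlap (log2 fold change 4.77 ± 0.41, adjusted p = 4.02e-06). Sox8 and Dmrt2, transcription factors of muscle progenitors, rose by 2.79 and 5.02 on the log2 scale. Calcr and Lgr5, the calcitonin receptor and a receptor for R-spondins, were not called (2.99 ± 1.40 and −0.14 ± 0.59). The 6 members that fell were Hes1, Foxo3, Nfix, Vcam1, Sdc3 and Sdc4. Vcam1 and the syndecan Sdc3, both cell surface proteins, fell by 1.89 and 2.05.

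**Figure D2:**
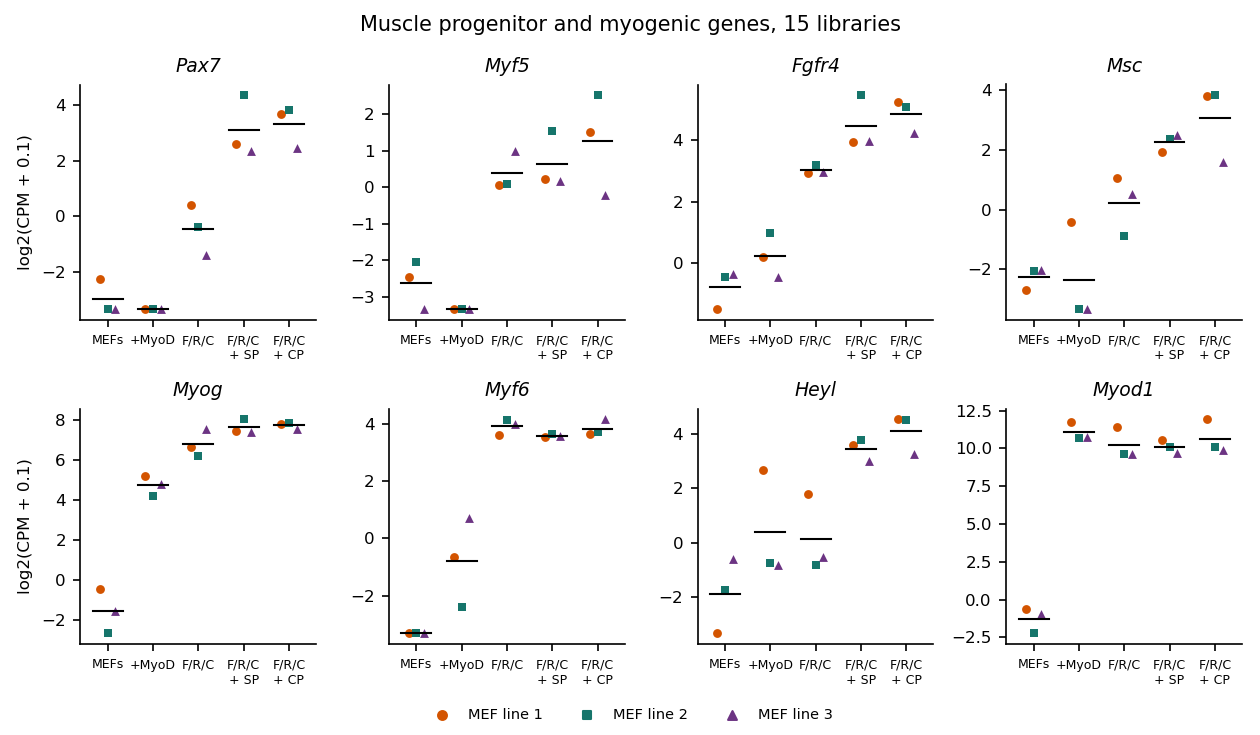
The y axes give log2(CPM + 0.1) and the x axes the 5 conditions, with symbols for the 3 MEF lines and bars for the mean of the log2 values. Pax7 and Myf5 lie at the floor in all +MyoD libraries and above it in all libraries with MyoD + F/R/C + CP, while Myod1 overlaps between these groups.

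In the Notch pathway, which holds satellite cells in the undifferentiated state, 8 of 23 genes rose and 4 fell (median 0.42). These are 34.8% and 17.4%, beside 13.4% and 10.3% of all genes. Of 5 ligands, 2 rose. Dll1, a ligand of muscle progenitors, had 0.689, 0.553 and 0.0593 CPM in +MyoD and 21.2, 15.2 and 10.7 CPM in MyoD + F/R/C + CP, so that the groups stood far apart (log2 fold change 5.23 ± 0.49, adjusted p = 7.85e-06). Jag2 rose by 1.30 on the log2 scale. The 4 receptors were divided, with Notch1 higher (0.60 ± 0.18) and Notch2 lower (−0.73 ± 0.15), and Notch3 and Notch4 not called. Among 6 target genes, 4 rose and Hes1 fell. The target Heyl had 6.36, 0.495 and 0.475 CPM in +MyoD and 23, 22.6 and 9.44 CPM with the cocktail. The groups did not overlap, but the +MyoD library of line 1 lay well above the others of its group (log2 fold change 3.47 ± 0.93, adjusted p = 0.0128), and the call was lost without line 2 of +MyoD (adjusted p = 0.0549) or of MyoD + F/R/C + CP (adjusted p = 0.0503). Hey1 had 1.35, 0.145 and 1.93 CPM without and 15.4, 17.1 and 6.31 CPM with the compounds and was higher in each line (log2 fold change 3.31 ± 0.79, adjusted p = 0.0066). Hes1 itself had 35.1, 42.4 and 31.7 CPM in +MyoD and 22, 30.3 and 22 CPM in the treated group and fell (log2 fold change −0.56 ± 0.17, adjusted p = 0.0207). Rbpj, the DNA-binding mediator of the pathway, fell by 0.59, which was 0.46 without line 2 of +MyoD and 0.40 with library totals, both under the limit of 0.5, and its adjusted p was 0.0727 with only the 6 libraries. Numbl, a relative of the Notch inhibitor Numb, fell by 1.02. Hes1, Jag2, Notch1, Notch3 and Notch4 lay outside the naming rule and were chosen after their values were seen.

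Cell cycle genes rose together. Of 25 genes of DNA replication, 24 rose and 1 fell (median 1.34), and of 25 genes of mitosis, 25 rose (median 1.35). Summed over the mitosis list, the level was 305.2 to 374 CPM in +MyoD and 668.3 to 1063 CPM in MyoD + F/R/C + CP, which remained below the 3195 to 3532 CPM of untransfected MEFs. The time label of these MEFs is day 10, whereas the names under which they were deposited carry day 0, so that starting cells and cultures of day 10 cannot be told apart for this reference level. Mcm10, an initiation factor of replication, had 1.79, 1.75 and 1.39 CPM in +MyoD and 16.1, 10.9 and 8.74 CPM with the cocktail. All treated libraries lay above the controls, with line 3 lowest (log2 fold change 2.84 ± 0.19, adjusted p = 7.28e-07). Top2a, the topoisomerase of dividing cells, had 32.3, 32.3 and 37.8 CPM in +MyoD and 154, 106 and 81.8 CPM in the treated lines, likewise apart (log2 fold change 1.67 ± 0.20, adjusted p = 4.82e-05). The only replication gene that fell was E2f1, a transcription factor of S-phase entry (log2 fold change −0.53 ± 0.15, adjusted p = 0.0163), and its call was lost without line 2 of +MyoD or without line 1 or 2 of MyoD + F/R/C + CP (adjusted p = 0.0665, 0.0548 and 0.0931), with library totals (−0.35, adjusted p = 0.0884) and with only the 6 libraries (adjusted p = 0.0564). Ccnd1, the G1 cyclin, had 1055, 421 and 789 CPM in +MyoD and 401, 267 and 321 CPM with the cocktail and fell (log2 fold change −1.14 ± 0.18, adjusted p = 0.000421). Among CDK inhibitors and pocket proteins, 3 of 10 rose and 1 fell. Cdkn1c, which encodes the inhibitor p57, had 23.8, 89.8 and 46.6 CPM in +MyoD and 536, 492 and 357 CPM in MyoD + F/R/C + CP, without overlap (log2 fold change 3.21 ± 0.32, adjusted p = 1.3e-05). Of 12 p53 target genes, 0 rose and 2 fell. Over the 22 genes of the list of inhibitors and p53 targets, 13.6% were called higher and 13.6% lower, near the 13.4% and 10.3% of all genes tested.

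TGF-β target and feedback genes had the lowest median of the 37 lists. Their share called lower was 72.7%, beside 10.3% of all genes, and their share called higher was 9.09%, below the 13.4% of all genes. Of 22 tested, 16 fell and 2 rose (median −1.30), and the list summed to 6376 to 13170 CPM in +MyoD and to 2475 to 2903 CPM in MyoD + F/R/C + CP. Ltbp2 (ENSMUSG00000002020.15, chr12:84783212-84876532, minus strand), a matrix protein related to TGF-β-binding proteins, had 482, 809.9 and 547 CPM in +MyoD and 105, 167 and 142 CPM with the cocktail. All treated libraries lay below all controls, and Ltbp2 fell (log2 fold change −2.15 ± 0.15, adjusted p = 7.28e-07). Ski, a repressor of SMADs, fell by 1.10 on the log2 scale. The 2 genes that rose were Tgfb2, a ligand (1.65 ± 0.18), and Tgfbr1, the type I receptor (1.22 ± 0.18). In MyoD + F/R/C, which lacks CP690550 and shares the +MyoD libraries, Ltbp2 stood at 173, 222 and 249.6 CPM.

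Fibroblast and matrix genes split into both directions, with 13 of 37 called higher (35.1%) and 11 called lower (29.7%). Over all genes these shares were 13.4% and 10.3%, and the counts by role below stand beside them. Their median was 0.52, and without line 1 of +MyoD it was −0.01. Summed over the list, the level was 50870 to 96810 CPM in +MyoD and 39690 to 44070 CPM with the cocktail. Both ranges lay above the 16850 to 21440 CPM of untransfected MEFs, so the lower sum is not a fall below the level of those fibroblasts. Of 15 matrix proteins and crosslinkers, 8 fell and 4 rose. Fbln2, an extracellular fibulin, had 5152, 6102 and 2674 CPM in +MyoD and 141, 154 and 127 CPM in MyoD + F/R/C + CP. The groups were far apart (log2 fold change −5.01 ± 0.30, adjusted p = 2.95e-07). Bgn, which encodes the proteoglycan biglycan, had 5414, 7026 and 4619 CPM without compounds and 981, 1042 and 916 CPM with them and fell as well (log2 fold change −2.52 ± 0.14, adjusted p = 2.38e-07). Lox, a collagen crosslinking enzyme, and Fn1, fibronectin, fell by 3.44 and 2.55. By contrast, Dcn, the proteoglycan decorin, had 20.3, 71.2 and 95.1 CPM in +MyoD and 625, 637 and 696 CPM with the cocktail (log2 fold change 3.45 ± 0.40, adjusted p = 3.87e-05), so that relatives of one protein family moved in opposite directions. Lum and Dcn were taken from the list after their values were seen, and Lum, which encodes lumican, rose by 3.80. Of 12 fibroblast surface proteins and factors, 6 rose and 1, Thy1, fell. Of 13 contractile genes of smooth muscle and myofibroblasts, 5 fell (38.5%) and 2 rose, and the 15.4% called higher is near the 13.4% of all genes. Among them were Tagln, an actin-binding protein, which fell (log2 fold change −1.92 ± 0.35, adjusted p = 0.00109), and Synpo2, an actin-bundling protein, which rose (2.44).

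Of 18 Wnt target genes, 9 were called higher and 4 lower (median 1.04). The sum over the list was lower with the cocktail in each line, with 1372, 852.5 and 1378 CPM in +MyoD and 905.2, 743 and 795.9 CPM in MyoD + F/R/C + CP, and Ccnd1 made up 1055, 421 and 789 CPM of the +MyoD sums. Axin2, the feedback inhibitor of the pathway, had 4.32, 4.04 and 4.6 CPM in +MyoD and 29.9, 37.7 and 28.4 CPM in MyoD + F/R/C + CP. The lines of each group were within a narrow range and the groups were far apart (log2 fold change 2.88 ± 0.20, adjusted p = 7.28e-07). Tnfrsf19, a receptor that is induced by Wnt, had 1.66, 1.13 and 1.9 CPM in +MyoD and 41.1, 49 and 42.9 CPM with the cocktail (log2 fold change 4.81 ± 0.24, adjusted p = 1.12e-07). Nkd1, another feedback inhibitor, rose by 2.68. The 4 genes that fell were Ccnd1, Dkk2, Nkd2 and Lgr6. Lgr6, a receptor for R-spondins, had 23.3, 25.7 and 22.8 CPM in +MyoD and 2.92, 1.39 and 1.93 CPM in the treated lines (log2 fold change −3.55 ± 0.27, adjusted p = 1.75e-06), opposite in sign to Axin2. The letters CTTTGAT, searched on both strands, were present in the windows of 2 of 13 of these genes, compared with 3.25% of the tested genes.

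Genes induced by cAMP were called higher in 14 of 24 cases (58.3%, beside 13.4% of all genes) and lower in 1, Nr4a2 (median 1.12). Pde3b, a phosphodiesterase that degrades cAMP, had 20.5, 10.5 and 16.5 CPM in +MyoD and 63.7, 46.1 and 47.2 CPM in MyoD + F/R/C + CP, without overlap (log2 fold change 1.75 ± 0.15, adjusted p = 4.02e-06). Th, the rate-limiting enzyme of catecholamine synthesis, had 0 counts in every +MyoD library and 5.92, 5.34 and 3.93 CPM with the cocktail, so that it was at least 172-fold higher (adjusted p = 9.43e-05). Chgb, which encodes a protein of secretory granules and was listed here as a neuronal gene, had 1.53, 0.175 and 0.593 CPM in +MyoD and 31.8, 30.3 and 40.3 CPM in the treated group. The groups did not overlap and Chgb rose (log2 fold change 5.87 ± 0.64, adjusted p = 2.28e-05). The cAMP response element TGACGTCA, a palindrome, was present in the windows of 6 of 19 members of the cAMP list (31.6%), in 3.22% of tested genes and in 1.79% of all windows. It was present in 3.59% of the genes called higher and 2.55% of those called lower. The stretches below are shown for 2 genes that rose and hold it, in capitals, 45 and 72 bases before the start.
Th, chr7:142900022-142900051, minus strand: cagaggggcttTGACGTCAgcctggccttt
Chgb, chr2:132781559-132781588, plus strand: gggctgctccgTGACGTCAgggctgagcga
Neither Th nor Chgb was called between MyoD + F/R/C + CP and MyoD + F/R/C (log2 fold change −0.10 ± 0.64 and −0.85 ± 0.48).

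**Figure D3:**
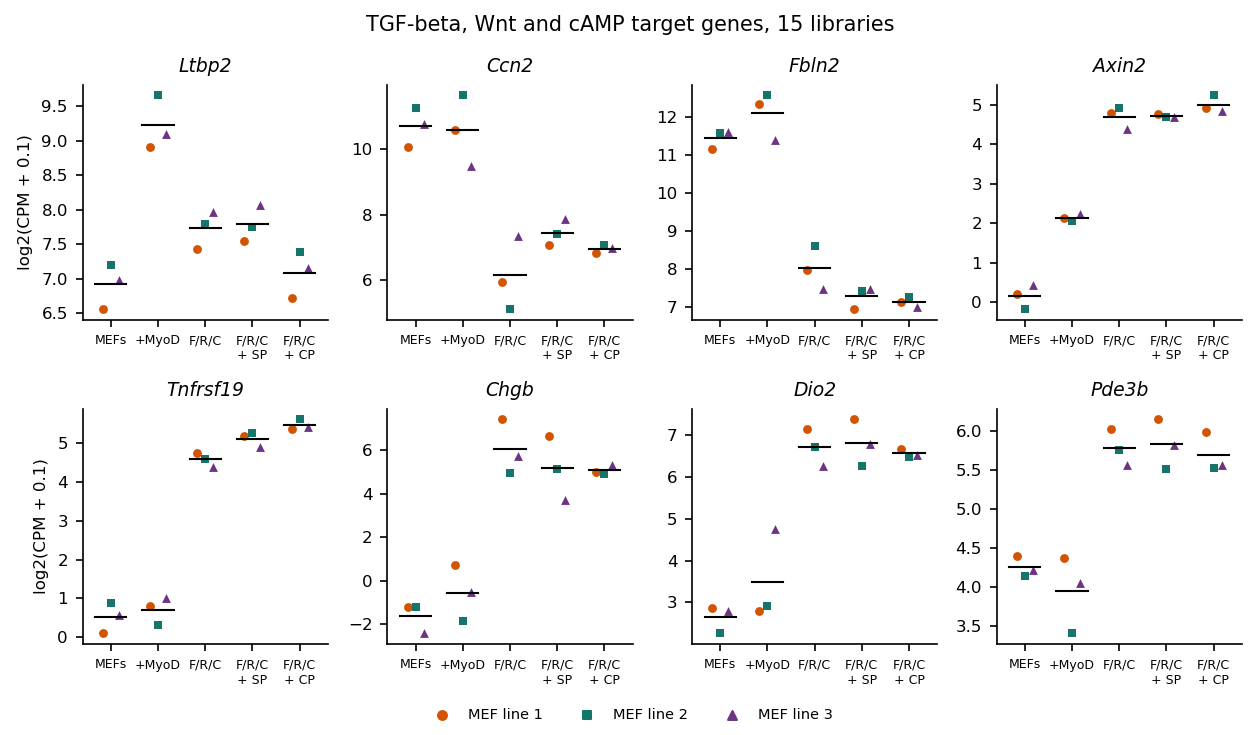
Levels as log2(CPM + 0.1) on the y axes are plotted for the 5 conditions on the x axes, with symbols for the MEF lines and bars for the mean of the log2 values. Ltbp2, Ccn2 and Fbln2 lie lower, and Axin2, Tnfrsf19, Chgb, Dio2 and Pde3b lie higher, in MyoD + F/R/C + CP than in +MyoD, in each of the 3 lines.

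Of 38 JAK/STAT pathway genes, 16 fell (42.1%, beside 10.3% of all genes) and 4 rose (median −0.53). The 10.5% called higher is below the 13.4% of all genes, and the counts by role below stand beside the same shares. The sum over the list was 2993 to 3932 CPM in +MyoD and 2022 to 2221 CPM in MyoD + F/R/C + CP. Among the 4 kinases, Jak3 and Tyk2 fell. Jak3, the kinase of the common gamma chain receptors, had 25.7, 53.5 and 47 CPM in +MyoD and 20.0, 26.9 and 29.5 CPM with the cocktail. The ranges of the groups overlapped, with line 1 of +MyoD inside the treated range, and Jak3 fell (log2 fold change −0.68 ± 0.18, adjusted p = 0.0125). The Jak3 call was lost with scaling by library totals (−0.50, adjusted p = 0.0692), without the block for MEF line (−0.72, adjusted p = 0.061) and without line 2 or 3 of +MyoD or line 2 of MyoD + F/R/C + CP (adjusted p = 0.0538, 0.052 and 0.0882). Jak2 had 49, 54.5 and 69.2 CPM in +MyoD and 48.5, 52.4 and 55.1 CPM with the cocktail and was not called (log2 fold change −0.14 ± 0.15, adjusted p = 0.527). Of 7 transcription factors, Stat2, Stat3 and Stat6 fell. Stat6, which acts downstream of IL-4, fell by 0.71 (adjusted p = 0.00033). Of 13 receptor genes, 5 fell and 2, Lifr and Cntfr, rose. Il4ra, the IL-4 receptor alpha chain, had 283, 537 and 435 CPM in +MyoD and 72.7, 107 and 120.3 CPM in the treated group, with no overlap (log2 fold change −2.06 ± 0.18, adjusted p = 5.61e-06). Of 6 ligand genes, 4 fell, among them Il6, Lif and Clcf1. Clcf1, a cytokine of the IL-6 family, had 35.9, 38.5 and 46.7 CPM in +MyoD and 10.2, 9.45 and 13.3 CPM with the cocktail (log2 fold change −1.88 ± 0.16, adjusted p = 4.2e-06). The feedback inhibitors were mixed, since Cish and Socs5 fell, Socs7 and Ptpn6 rose, and Socs3 was not called (−0.01 ± 0.20). The calls of Socs7 and Ptpn6 were lost without line 2 of MyoD + F/R/C + CP (adjusted p = 0.0603 and 0.0504), and that of Socs7 also without line 3 of +MyoD (adjusted p = 0.0581). With only the 6 libraries they were lost as well (adjusted p = 0.0866 and 0.11), and with lengthScaledTPM counts Ptpn6 had 1.04 in place of 2.01 (adjusted p = 0.298).

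Of 43 interferon response genes, 5 fell and 1 rose, and the 11.6% called lower is near the 10.3% of all genes tested. The list median was −0.33, but it differed between lines (0.40, −0.27 and −0.78 in lines 1, 2 and 3) and was 0.25 without line 3 of +MyoD. The genes that fell were Isg15, Ddx58, Eif2ak2, Irf7 and Stat2. Ddx58, which encodes the RNA sensor RIG-I, fell by 1.27 (adjusted p = 0.00071), and Eif2ak2, which encodes the RNA-activated kinase PKR, fell by 0.82 (adjusted p = 0.00547). Irf7, a regulator of interferon production, had 2.54, 5.82 and 5.16 CPM in +MyoD and 1.72, 2.82 and 1.77 CPM with the cocktail. Overlap came from line 1 of +MyoD (log2 fold change −1.10 ± 0.31, adjusted p = 0.0169). The call was lost with lengthScaledTPM counts (−0.51, adjusted p = 0.402), in the fit of only the 6 libraries (adjusted p = 0.144), without line 2 or 3 of +MyoD (0.0727 and 0.0738) and without line 1 or 3 of MyoD + F/R/C + CP (0.0745 and 0.0817). Isg15, a ubiquitin-like protein, had 0.595, 2.07 and 2.67 CPM in +MyoD and 0.495, 0.0526 and 0.57 CPM in the treated group (log2 fold change −2.33 ± 0.71, adjusted p = 0.0257), and its call was lost without line 2 or 3 of either group, with an adjusted p between 0.0522 and 0.109, and with only the 6 libraries (adjusted p = 0.217). Stat2 fell by 0.96 (adjusted p = 0.0152), a call that was lost without line 2 or 3 of +MyoD or line 1 or 2 of MyoD + F/R/C + CP (adjusted p between 0.053 and 0.0895), with lengthScaledTPM counts (adjusted p = 0.0566) and with only the 6 libraries (adjusted p = 0.0559). The gene that rose was Igtp, an immunity-related GTPase (1.85 ± 0.48), and its call was lost without line 3 of MyoD + F/R/C + CP (adjusted p = 0.0602) and with only the 6 libraries (adjusted p = 0.0544). Ifi44 and Irf9 were not called (−0.95 ± 1.0 and −0.51 ± 0.19). In antigen presentation, 5 of 13 genes fell (38.5%, beside 10.3% of all genes) and 1 rose (median −0.22). B2m, the light chain of class I molecules, had 219, 327 and 267 CPM in +MyoD and 113, 98.9 and 112 CPM with the cocktail (log2 fold change −1.33 ± 0.15, adjusted p = 2.56e-05), and Nlrc5, the class I transactivator, fell by 2.76.

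**Figure D4:**
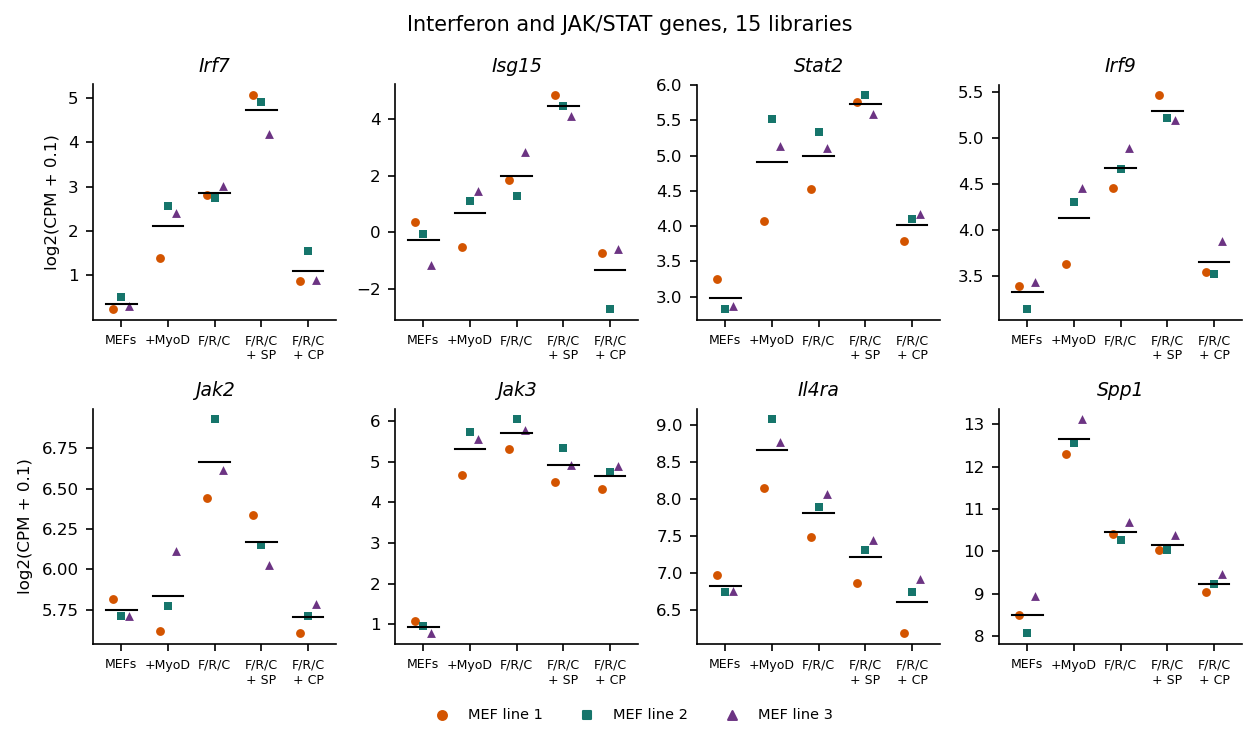
The plots show log2(CPM + 0.1) on the y axes for the 5 conditions on the x axes, with a symbol for each MEF line and a bar at the mean of the log2 values. Irf7, Isg15, Stat2 and Irf9 have their highest levels with SP600125, and in each line Il4ra and Spp1 are lower in MyoD + F/R/C + CP than in the other transfected groups.

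Adding CP690550 to MyoD + F/R/C gave few calls by edgeR. In all, 10 genes were called higher (0.0517% of 19331) and 27 lower (0.14%), while DESeq2 called 145 and 199, and 948 and 931 fell under an unadjusted p of 0.05. The number was not stable. Leaving out line 1 or line 2 of either group left 0 calls, leaving out line 3 of MyoD + F/R/C + CP left 1 higher and 4 lower, and leaving out line 3 of MyoD + F/R/C left 7 lower. Without the block for MEF line there were 0 higher and 7 lower calls. Pax7, Dct, Irf7, Jak2, Jak3, Il4ra and Pomc were called in 0 of the 6 fits that left out a library, and in 6 to 9 of 9 other settings. Pomc, which encodes the precursor of melanocortins, had 11.7, 7.63 and 6.98 CPM in MyoD + F/R/C and 1.04, 1.37 and 0.887 CPM with CP690550. It fell (log2 fold change −3.02 ± 0.45, adjusted p = 0.0296) and was still called without the block, as were Slfn2, Ifi211, Steap1, Steap2, Jak2 and Tnfaip2. Jak2 (chr19:29251828-29313080, plus strand) had 87, 122 and 98 CPM in MyoD + F/R/C, above all libraries with CP690550 (log2 fold change −0.97 ± 0.15, adjusted p = 0.03). Jak3 fell in the same contrast (−1.06 ± 0.18, adjusted p = 0.0393). Ifi211, an interferon-inducible gene with close paralogs, had 16.9, 22.1 and 21.1 CPM in MyoD + F/R/C and 4.01, 3.55 and 5.77 CPM with CP690550 (log2 fold change −2.19 ± 0.26, adjusted p = 0.00705). Spp1, the secreted phosphoprotein osteopontin, had 5030.5, 6013 and 8828 CPM in +MyoD, 1361, 1239.7 and 1642 CPM in MyoD + F/R/C, 1049, 1039.6 and 1339 CPM with SP600125 and 527, 598 and 706 CPM with CP690550. It fell against MyoD + F/R/C (log2 fold change −1.21 ± 0.14, adjusted p = 0.00705), against MyoD + F/R/C + SP (−0.90 ± 0.14, adjusted p = 0.019) and against +MyoD (−3.41 ± 0.15, adjusted p = 6.76e-08). The genes called higher over MyoD + F/R/C were Pax7, Dct, Kera, Cpm, Bcar3, Fzd9, Pag1, Lmnb2, Ccne1 and Ttyh2. Genes of this comparison that the naming rule did not take were chosen after their values were seen. Of the lists, the JAK/STAT pathway held 3 of these lower calls among 38 genes, the interferon list 1 among 43 with a median of −0.94, and the sarcomere, TGF-β, Wnt and cAMP lists held 0 calls with medians of 0.03, −0.11, 0.28 and −0.06.

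Against MyoD + F/R/C + SP, 36 genes were called lower (0.186%) and 0 higher (0%), with 620 and 398 at an unadjusted p under 0.05 and 108 and 18 by DESeq2. Interferon response genes took 17 of the 36 lower calls, and the median of their 43 members was −2.22. The level summed over the interferon list was 1360 to 1825 CPM with SP600125, 878.5 to 991.5 CPM in MyoD + F/R/C, 386.1 to 981.5 CPM in +MyoD and 499.7 to 568.8 CPM with CP690550. Isg15 had 28.5, 21.9 and 17.1 CPM with SP600125 and stood far above every library with CP690550 (log2 fold change −6.01 ± 0.76, adjusted p = 0.0042). Irf7 had 33.3, 29.9 and 18.1 CPM with SP600125 and likewise stood apart (log2 fold change −3.71 ± 0.33, adjusted p = 0.000511). Oasl2, a protein of the 2′-5′ oligoadenylate synthetase family, had 58.7, 37.7 and 23.8 CPM with SP600125 and 1.79, 1.66 and 1.46 CPM with CP690550 (log2 fold change −4.61 ± 0.60, adjusted p = 0.0042). Leaving out any 1 library left 10 to 31 lower calls, and Isg15, Irf7, Irf9, Ddx58, Slfn2 and Ifi211 were called in each of these fits. The letters GAAANNGAA, the core of the interferon-stimulated response element (ISRE), were searched on both strands, where the other strand reads TTCNNTTTC and neighboring matches may overlap. They were present in the windows of 15 of 28 of the genes called lower against SP600125 (53.6%), 6 of 23 of those called lower against MyoD + F/R/C (26.1%) and 19 of 32 of the interferon list (59.4%), compared with 8.72% of tested genes and 8.56% of all windows. Of the genes called against +MyoD, 7.19% of the higher and 8.18% of the lower ones held them. Stretches with matches in capitals are shown for Isg15 and Ifit1, which were lower with CP690550 than with SP600125, and for Igtp, which rose against +MyoD.
Isg15, chr4:156200871-156200900, minus strand: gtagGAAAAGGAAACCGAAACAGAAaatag
Ifit1, chr19:34640773-34640802, plus strand: tgcaggcTTCAGTTTCACTTTCcagtctca
Igtp, chr11:58199512-58199541, plus strand: tctaggaactGAAACTGAAagctgttcggg
The 3 matches in Isg15 overlap at their ends. The sets of called genes and the windows shown were chosen after the calls were seen.

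Marker genes of other cell types were also measured. Of 10 melanocyte and neural crest markers with enough counts, 7 rose (70.0%, beside 13.4% of all genes) and 0 fell (median 3.35). Tyrp1 had enough counts to be tested only through the libraries with CP690550, so it could not have been counted as a fall. This count and this median include it. The sum over the list was 60.06 to 129.6 CPM in +MyoD and 154.2 to 162.1 CPM in MyoD + F/R/C + CP. That sum was 116.2 to 171.9 CPM in MyoD + F/R/C and 114.5 to 169.7 CPM with SP600125, so the summed level was not higher with CP690550 than in these groups. Dct (ENSMUSG00000022129.4, chr14:118012790-118052244, minus strand), an enzyme of melanin synthesis, had 0.407, 0.116 and 0 CPM in +MyoD, 0.415, 0 and 0.0219 CPM in MyoD + F/R/C and 8.78, 13.6 and 7.64 CPM with CP690550. All lines with CP690550 lay above all others, and Dct rose against +MyoD (log2 fold change 6.39 ± 1.15, adjusted p = 0.00102) and against MyoD + F/R/C (6.75 ± 1.17, adjusted p = 0.0393). Tyrp1, a further enzyme of the same pathway, had 0 counts in +MyoD and in MyoD + F/R/C and 2.78, 13.7 and 3.07 CPM with CP690550, which is at least 218-fold above +MyoD (adjusted p = 0.00335). It was not called against MyoD + F/R/C (adjusted p = 0.0882), nor against +MyoD by DESeq2 (adjusted p = 0.0727). Pmel, a protein of melanosome fibrils, had 0.783, 2.01 and 1.54 CPM in +MyoD and 4.55, 18.3 and 7.83 CPM with the cocktail, with line 2 highest as for Dct and Tyrp1 (log2 fold change 2.78 ± 0.58, adjusted p = 0.00266). Kit, the receptor of melanoblasts and other progenitors, rose by 3.92. Sox10, a neural crest factor, was not called (2.06 ± 0.79), and Mlana and Oca2 were below the filter.

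**Figure D5:**
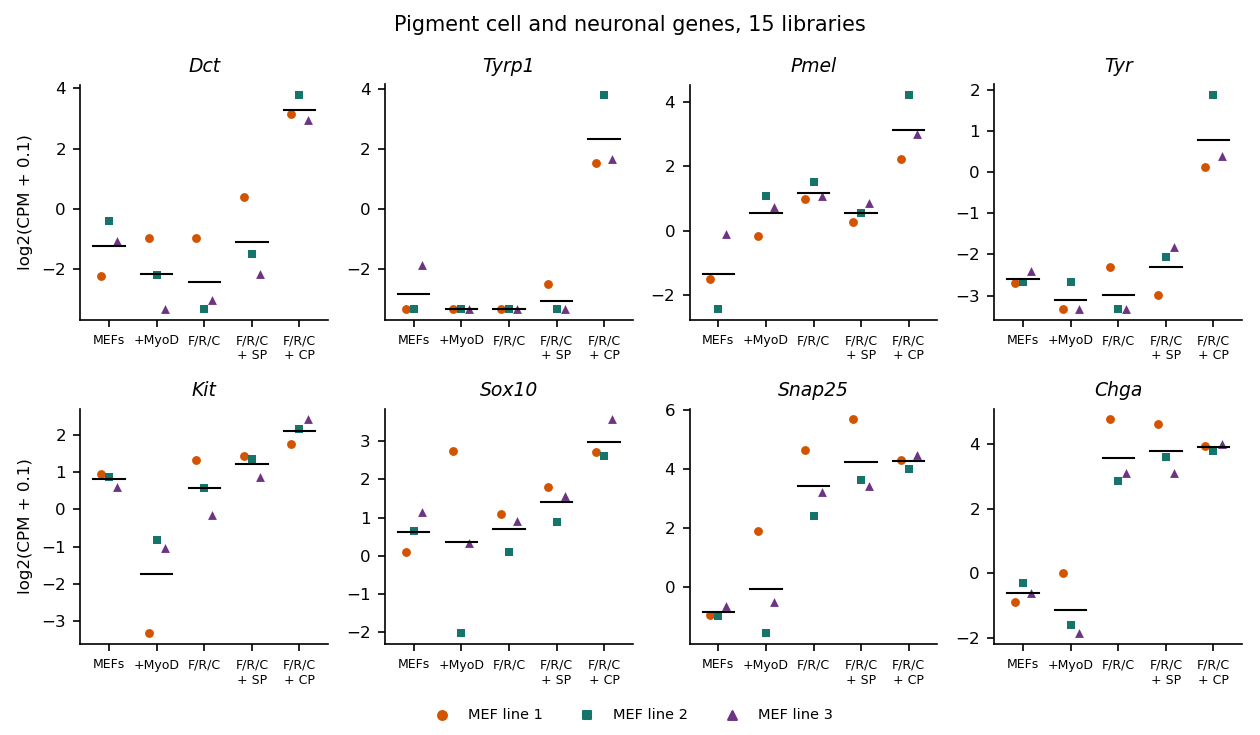
Levels are given as log2(CPM + 0.1) on the y axes for the 5 conditions on the x axes, with symbols for the MEF lines and bars for the mean of the log2 values. Dct, Tyrp1, Pmel and Tyr are highest in the 3 libraries of MyoD + F/R/C + CP, whereas Snap25 and Chga overlap between the groups that received F/R/C.

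Of all genes, 13.4% were called higher and 10.3% lower, and the marker counts below stand beside these shares. The shares called lower among endothelial and cardiac genes, 8.33% and 10.0%, are near that of all genes. Neuronal genes rose in 13 of 18 cases (72.2%) and fell in 0 (median 2.49). Chga, a granule protein of neuroendocrine cells, had 0.908, 0.233 and 0.178 CPM in +MyoD and 15.2, 13.6 and 15.9 CPM with the cocktail (log2 fold change 5.33 ± 0.51, adjusted p = 8.73e-06), and Dbh, which makes noradrenaline, rose by 3.66. Tubb3 and Stmn2, also markers of neurons, were not called. Glial genes rose in 4 of 9 cases (median 2.16, or 4.78 without line 1 of +MyoD), S100b by 3.35. Of 12 adipocyte genes, 6 rose and 0 fell (median 1.56), among them Pparg, the regulator of fat cell differentiation, with 3.32, 3.23 and 3.62 CPM in +MyoD and 15, 15.2 and 13.3 CPM in the treated lines (log2 fold change 2.09 ± 0.21, adjusted p = 1.45e-05). Endothelial genes were called higher in 5 of 12 cases and lower in 1, although their summed level, 72.06 to 91.69 CPM in +MyoD and 57.7 to 76.66 CPM with the cocktail, overlapped. Of 10 cardiac genes tested, 5 rose and Gata4 fell, and several of these, such as Actc1 (3.41) and Tnnt2 (1.54), are also expressed in developing skeletal muscle. Cartilage genes fell in 5 of 15 cases (33.3%) and rose in 2 (median −0.63, or −1.17 without line 1 of MyoD + F/R/C + CP). The 13.3% called higher is near the 13.4% of all genes. Cilp2 was among those that rose, and its call was lost with only the 6 libraries (adjusted p = 0.134). It was also lost without line 1, 2 or 3 of MyoD + F/R/C + CP (adjusted p = 0.093, 0.0547 and 0.0788). Col11a1, a cartilage collagen, had 233, 780.3 and 245 CPM in +MyoD and 48.7, 26.2 and 28.3 CPM with the cocktail (log2 fold change −3.51 ± 0.41, adjusted p = 3.89e-05). Macrophage genes were low in both groups, with a sum of 16.73 to 32.59 CPM in +MyoD and 20.92 to 36.3 CPM in MyoD + F/R/C + CP. Of 11 tested, 2 rose (18.2%, beside 13.4% of all genes). Of 8 epithelial genes, 3 rose, Cdh1 by 4.22. The part that such cells have in the other results was not tested.

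Single genes at both ends of the contrast came from several classes. Kera, a keratan sulfate proteoglycan related to Lum, had 0 counts in +MyoD and 125, 95.2 and 91.9 CPM in MyoD + F/R/C + CP, at least 3522-fold higher (adjusted p = 1.65e-06). It stood at 43.6, 35.9 and 10.1 CPM in MyoD + F/R/C and was also called higher in the contrast that isolates CP690550 (log2 fold change 2.01 ± 0.31, adjusted p = 0.0485). That call was made in 5 of 9 other settings, in 0 of the 6 fits that left out a library and not without the block for MEF line. P2rx1, an ATP-gated channel, had 0 counts in +MyoD and was at least 431-fold higher. Fgf6, a growth factor made by skeletal muscle, had 0.251, 0.0291 and 0.356 CPM in +MyoD and 29.7, 33.8 and 41.2 CPM with the cocktail (log2 fold change 7.37 ± 0.39, adjusted p = 5.52e-07). Slc18a3, the vesicular acetylcholine transporter, and Lyve1, a hyaluronan receptor, rose by 7.31 and 7.58. Pax7, Tyrp1 and Th, described above, and Grp, Mup22 and Adamdec1 were also among the 12 highest by the naming rule, of which Mup22 has close paralogs. Apart from Fbln2, the lowest 12 included Prg4, the lubricin of joints, with 19.1, 69.8 and 101 CPM in +MyoD and 1.53, 1.71 and 1.46 CPM in the treated lines (log2 fold change −5.22 ± 0.56, adjusted p = 2.19e-05). Gjb2, a connexin of gap junctions, fell by 5.0, and Klhdc8a, which had 59.8, 49.7 and 58.3 CPM in +MyoD and 2.38, 1.68 and 1.24 CPM with the cocktail, fell without overlap (log2 fold change −4.95 ± 0.31, adjusted p = 5.24e-07). Gvin1, an interferon-inducible GTPase with close paralogs, fell by 5.59.

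MyoD + F/R/C without CP690550 was also set against the same +MyoD libraries. In that contrast 2241 genes were called higher (11.6%) and 1713 lower (8.86%). Because the +MyoD libraries are shared, each value is given beside the other without a test of likeness. For the sarcomere the median was 1.93 in MyoD + F/R/C and 1.98 in MyoD + F/R/C + CP, for TGF-β targets −1.11 and −1.30, for cAMP targets 1.35 and 1.12, and for neuronal genes 2.53 and 2.49. For the interferon list it was 0.73 and −0.33, with 10 members called higher and 0 lower in MyoD + F/R/C. For melanocyte markers it was 0.67 and 3.35, although their summed CPM overlapped between these groups, and for satellite cell genes 0.04 and 0.62. Axin2 rose by 2.58 and 2.88, and Fbln2 fell by 4.10 and 5.01 on the log2 scale. Pax7 was at least 23.3-fold and 371-fold above its floor in +MyoD.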

How the data were processed

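Poly-A RNA of MEF cultures was sequenced as stranded single-end reads. The authors trimmed them with fastp 0.20.0 after bcl2fastq 2.20 and deposited estimated counts per transcript from kallisto 0.46.1 against GRCm38.p6, beside TPM values and transcript lengths. The deposited TPM values served only for an alternative (lengthScaledTPM counts). Transcripts were assigned to genes with a GRCm38 annotation, and for each gene these estimated counts were added over its transcripts and rounded. Transcripts without a match in the annotation (739) took 0.236% to 0.300% of the counts and were left out.

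All 15 libraries were fitted with edgeR 4.0.16 (R 4.3.3) by the quasi-likelihood test, with TMM scaling, a filter on low counts (minimum 10, total 15) and terms for group and MEF line. Every adjusted p is from this fit (Benjamini-Hochberg over all 19331 genes), except where DESeq2 1.42.0 or another setting is named. On simulated counts with planted changes, the fit met limits set beforehand that asked for only part of these changes to be called. The simulated counts had no effect of MEF line and an equal spread in all groups, unlike the libraries. The block rests on the labels and methods, which give the same 3 lines, 1 embryo each, to every group. Deviations of same-line libraries from +MyoD and MyoD + F/R/C + CP correlated at 0.072, 0.078 and 0.008. Motifs were searched in RefSeq promoter windows. The members and lists were chosen with earlier results of these data known. Genes were named where the study names them, as the 12 highest and 12 lowest called genes without overlap and with a mean of at least 5 CPM, as at most 4 members per list (smallest p first) plus at most 3 called against their list's direction, and as the 6 highest and 6 lowest of the contrasts with MyoD + F/R/C and with SP600125. Members outside this rule, such as Dcn, Lum, Ccn2, Dio2, Tyr, Snap25, Il6, Cish, Thy1, Foxo3 and Sdc4, were chosen after their values were seen. Some genes that the rule names are not reported here. Alternatives were DESeq2, other scalings, no filter, no block, lengthScaledTPM counts, fewer libraries and each library left out in turn.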

Additional observations from a re-analysis of the deposited data

Results flagged for a closer look

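Counts on transcripts with no match in the annotation, which no comparison used, took at least 0.268% of each library of MyoD + F/R/C + CP and at most 0.262% of each library of +MyoD. The share was 0.273% to 0.327% in MyoD + F/R/C, 0.2795% to 0.317% with SP600125 and 0.252% to 0.297% in untransfected MEFs, so it was not particular to the libraries with CP690550.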

How the results depend on the processing

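Of 2882 alternative values of the 206 named genes, 2722 kept their side of the threshold, 126 lost the call and 34 gained it. Where a gene was called in the main or the alternative fit, 0 values changed sign. Sign changes of genes called in neither fit were not counted. Of 518 alternative list medians, 20 moved by more than the spread between lines. For MyoD + F/R/C + CP against +MyoD, the calls were 875 lower at a log2 fold change over 1, 1294 lower with library totals, and 1564 higher and 1279 lower with only the 6 libraries. Leaving out 1 library gave 2113 to 2505 higher and 1555 to 2084 lower. Against MyoD + F/R/C, DESeq2 gave 145 higher and 199 lower, library totals 6 higher, no filter 43 and 83, lengthScaledTPM counts 0 and 7, only the 6 libraries 173 and 249, and a limit over 1 15 lower. Without the replicate block, that is without pairing by MEF line, the calls were 0 and 7, while the other contrasts kept their counts within 1.5 times. The 12 libraries without +MyoD, an alternative chosen after seeing the data, gave 141 and 203, and leaving out 1 library gave 0 to 1 higher and 0 to 7 lower. Against MyoD + F/R/C + SP, DESeq2 gave 18 and 108, size factors 1 higher, library totals 1 higher, no filter 7 and 66, only the 6 libraries 60 and 177, the 12 transfected libraries (chosen after seeing the data) 2 higher and the 12 without +MyoD 14 and 102. Leaving out 1 library gave 0 higher and 10 to 31 lower. For MyoD + F/R/C against +MyoD, a limit over 1 gave 761 lower, library totals 1055 lower and only the 6 libraries 1223 and 932, with 1793 to 2260 higher and 1278 to 1874 lower without 1 library. The causes of these shifts were not tested. Genes with 0 counts in +MyoD allow only bounds at this depth. A group reduced to 2 libraries was assumed to vary like the others. All 37 genes called against MyoD + F/R/C were among the 344 of DESeq2.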

Other observations

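Transcripts encoded by the mitochondrial genome rose in 12 of 13 cases (median log2 fold change 0.84) and summed to 15190 to 18190 CPM in +MyoD and 23620 to 33820 CPM in MyoD + F/R/C + CP, while 4 of 21 nuclear genes of oxidative phosphorylation rose (median 0.28). Glycolysis and cholesterol synthesis each had 0 genes called higher and 2 called lower, of 16 and 20 tested. These shares called lower, 12.5% and 10.0%, are near the 10.3% of all genes. Among FGF and IGF genes, 7 of 25 rose and 3 fell, beside 13.4% and 10.3% of all genes. Igf1, a growth factor of muscle, had 7.99, 20.4 and 24.4 CPM in +MyoD and 65.1, 56.7 and 67.6 CPM with the cocktail (log2 fold change 1.84 ± 0.34, adjusted p = 0.00117 by edgeR), whereas Fgf2 and Fgf7 fell by 2.69 and 1.08.

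The counts of this paragraph stand beside 13.4% of all genes called higher and 10.3% called lower. Of 23 cytokine and chemokine genes, 4 rose (17.4%) and 6 fell (26.1%), and of complement genes 6.25% were called in each direction. Ccl11, the chemokine eotaxin, rose by 3.61, and Cxcl14 fell by 1.27. Of 22 matrix proteases and inhibitors, 2 rose and 8 fell. Of 16 complement genes, Cfd rose and Cd55 fell (the latter call was lost with library totals, without the block for MEF line (adjusted p = 0.108), with only the 6 libraries (adjusted p = 0.0811) and without line 3 of +MyoD or line 1 or 3 of MyoD + F/R/C + CP), and of 9 bone genes 1 rose and 3 fell.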
